A study of Drosophila melanogaster with 18 samples.

Results

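The genes described here are 7 Drosophila melanogaster factors that make, load, trim and finish phased piRNAs: zuc, mino, Gasz, armi, shu, Hen1 and nbr. They were chosen by symbol, with earlier results of these data known. All 7 were found in both deposited tables, among 17768 gene IDs and 226 repeat elements in the RNA table and 17773 gene IDs in the small RNA table. The series measured RNA and small RNA in whole embryos from 0 to 1.5 h of age, kept at 25 °C. Mothers of the Piwi-MatKD_1 and Piwi-MatKD_2 embryos were depleted of Piwi, and GFP-MatKD was the control. Each assay had 3 groups of 3 libraries.

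All mothers carried MAT-Gal4, a maternal driver of hairpin expression, and the labelled fathers were w1118. The control group GFP-MatKD had the maternal line 41550 with MAT-Gal4. Piwi-MatKD_1 had line 37483 with MAT-Gal4, and Piwi-MatKD_2 had line THU with MAT-Gal4. The growth protocol describes hairpin females mated to driver males, which differs from the maternal genotypes in the labels, so the cross itself is uncertain. Each knockdown group is 1 fly line, and nothing in the labels says that its libraries came from separate crosses or cages, so the p-values measure the spread between these libraries, which may be technical. By the labels, control mothers carried the driver too, so the comparisons do not measure an effect of the driver.

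As background, piRNAs are small RNAs that guide Piwi proteins to transposons in the germline. In phased production, the RNA helicase Armi brings a cleaved precursor to the outer membrane of mitochondria, where the endonuclease Zuc cuts it stepwise and the pieces are loaded onto Piwi. Exonucleases such as Nbr trim the 3′ ends of some piRNAs, and Hen1 adds a methyl group to the finished end; the transcripts of these factors reach the early embryo from the mother.

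The RNA libraries held from 8.5 to 73.0 M reads, where M is 1000000, and the small RNA libraries from 1.88 to 3.38 M expected counts. piwi, the targeted gene, had 8748 ± 715 normalised reads (SD, n = 3) in the controls and fell in both lines, to 355 ± 85.7 (Piwi-MatKD_1) and 305 ± 299 (Piwi-MatKD_2), all 6 knockdown libraries being below all control libraries. Among 10 maternal and germ plasm markers, the summed level ran from 2.95e+05 to 3.37e+05 normalised reads over the 9 libraries, and 8 of 13 eggshell and follicle cell markers were at 0 in each group. Some libraries stood apart. Ribosomal RNA took 10.9% and 5.90% of the reads in the Piwi-MatKD_2 libraries of 21.6 and 8.5 M reads, against 0.182% to 0.535% in the other 7. The series names total RNA sequencing while the protocol names an mRNA library kit, so the RNA selection on which such a share depends is uncertain. The summed level of 10 late embryo muscle markers was 1889 normalised reads in Piwi-MatKD_1 replicate 2 and from 50.9 to 174 in the other 8. The summed level of 20 early zygotic markers was 4307 to 9056 in Piwi-MatKD_2, below all libraries of Piwi-MatKD_1 (10406 to 15589) and of GFP-MatKD (11146 to 20001). Since whole embryos were pooled, the share of embryos or nuclei with a transcript and its amount in each cannot be told apart. Whether the groups differed in embryo stage within the 0 to 1.5 h window was not tested.

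Transcripts of the 7 factors were present in every library, from 716 normalised reads (Hen1) to 12124 (armi), and none passed the test in either knockdown line. The deposited normalised reads were compared by limma on log2(value + 1), over the 10767 features that reached 1 normalised read in 3 or more libraries, with a Benjamini-Hochberg adjusted p under 0.05 as the threshold. In Piwi-MatKD_1 against GFP-MatKD, 0 of 7 passed, where 0.186% of all features did. In Piwi-MatKD_2 against GFP-MatKD, 0 of 7 passed, against 3.04% of all features, and in Piwi-MatKD_2 against Piwi-MatKD_1, 0 of 7, against 2.22%. At an unadjusted p under 0.05, limma counted 0, 1 and 1 of the 7 in these comparisons, where 2.85%, 15.3% and 14.2% of all features were under it. edgeR and DESeq2 on the recovered whole reads each called 0, 1 and 0, and the 1 gene was shu. Over all features edgeR called 0.22%, 3.77% and 2.86%, and DESeq2 0.808%, 8.36% and 7.49%. The members' median log2 fold changes were -0.06, 0.07 and 0.25, beside 0.01, -0.04 and -0.05 over all features tested.

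**Figure D1:**
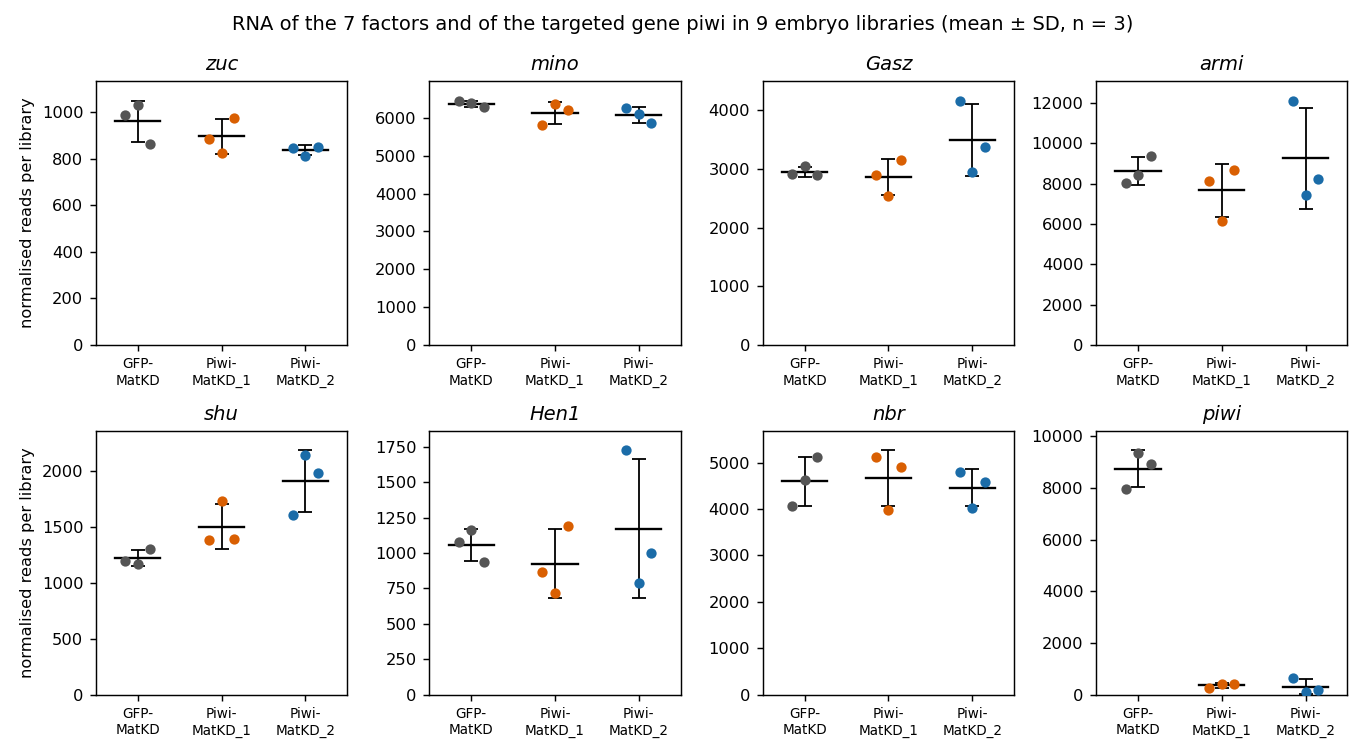
Normalised reads of each of the 7 genes in the 9 RNA libraries, 1 panel per gene, with piwi in an eighth panel for reference, 1 point per library, and the group mean ± SD (n = 3) as bars. The shu libraries of Piwi-MatKD_2, at 1607 to 2143, lie above those of GFP-MatKD, at 1171 to 1307, while in the Gasz, armi and Hen1 panels 1 Piwi-MatKD_2 library, that of 21.6 M reads, stands above the others.

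The endonuclease and the mitochondrial membrane proteins come first, by their place in the pathway. zuc (FBgn0261266, chromosome 2L, 11988735 to 11989882, a protein-coding gene) encodes the mitochondrial endonuclease that cuts phased piRNA 5′ ends. Its normalised reads were 988, 1032 and 861 in control replicates 1 to 3 and 885, 824 and 975 in Piwi-MatKD_1 replicates 1 to 3. Piwi-MatKD_2 gave 847, 812 and 851 in its libraries of 21.6, 8.5 and 73.0 M reads, which carry no replicate number. The Piwi-MatKD_2 libraries all lay below the lowest control library, by a small margin, while Piwi-MatKD_1 overlapped both groups. The log2 fold change was -0.10 in Piwi-MatKD_1 (SE 0.12, limma adjusted p 1.00) and -0.19 in Piwi-MatKD_2 (SE 0.12, adjusted p 0.555), and the 95% interval of the latter ran from -0.48 to 0.09.

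mino (FBgn0027579, chromosome 3R, 27925191 to 27933077) encodes Minotaur, an acyltransferase of the mitochondrial outer membrane that phased production needs. GFP-MatKD libraries held 6455, 6389 and 6290 normalised reads of it, Piwi-MatKD_1 libraries 5805, 6359 and 6219, and Piwi-MatKD_2 libraries 6268, 6105 and 5863, in the library order used for zuc. The highest library held 1.11 times the reads of the lowest. Over the 9 libraries the SD of mino on the log2 scale was 0.054, and 0.342% of 7024 genes with a mean of at least 100 normalised reads had a smaller one. The Piwi-MatKD_2 libraries ended just below the lowest control library, at a log2 fold change of -0.07 (SE 0.09, limma adjusted p 0.837, 95% interval -0.27 to 0.14). In Piwi-MatKD_1 it was -0.06 (interval -0.26 to 0.15).

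Gasz (FBgn0033273, chromosome 2R, 8167948 to 8170089) encodes a scaffold anchored in the outer mitochondrial membrane. Control libraries held 2909, 3044 and 2893 normalised reads, Piwi-MatKD_1 libraries 2894, 2547 and 3162, and Piwi-MatKD_2 libraries 4167, 2951 and 3371. The library of 21.6 M reads was the highest of the 9, and the groups overlapped. The log2 fold change in Piwi-MatKD_2 was 0.23 (SE 0.14, limma adjusted p 0.533), and 0.10 without that library.

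armi (FBgn0041164, chromosome 3L, 3461317 to 3466314) encodes the helicase that hands precursors to the mitochondrial complex. Its normalised reads were 8019, 8427 and 9377 among the controls. Piwi-MatKD_1 libraries gave 8144, 6170 and 8687, and Piwi-MatKD_2 libraries 12124, 7413 and 8223. All 3 groups overlapped, with the highest value in the 21.6 M library and the lowest in Piwi-MatKD_1 replicate 2. The log2 fold changes were -0.18 in Piwi-MatKD_1 and 0.07 in Piwi-MatKD_2 (SE 0.20 for both, limma adjusted p 1.00 and 0.942). The annotation in Release 6 also places CG46463 over the whole span of armi.

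shu had the highest log2 fold change of the 7 genes in all 3 comparisons. It lies on chromosome 2R, from 23841461 to 23843286 (FBgn0003401), and encodes Shutdown, a co-chaperone that works with Hsp90 to load Piwi proteins with piRNAs. The controls had 1191, 1171 and 1307 normalised reads, whereas Piwi-MatKD_1 libraries had 1381, 1733 and 1390 and Piwi-MatKD_2 libraries 1607, 2143 and 1983. All 6 knockdown libraries lay above the 3 control libraries, and the 2 knockdown lines overlapped each other. The mean in Piwi-MatKD_2 was 156% of the control mean, and that in Piwi-MatKD_1 was 123%.

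The difference of shu in Piwi-MatKD_2 against GFP-MatKD was 0.63 on the log2 scale (SE 0.15, 95% interval 0.30 to 0.97), with an unadjusted p of 0.00191 and an adjusted p of 0.0574 in limma, which missed the threshold. Of the 10767 features tested, 7.15% had a log2 fold change at least as high. Over 18 alternative fits it ran from 0.48 to 0.75, with adjusted p from 0.00091 to 0.231, and 5 of them passed. Leaving out the 21.6 M library, the lowest of the Piwi-MatKD_2 libraries for shu, gave 0.75 with a limma adjusted p of 0.0180. In Piwi-MatKD_1 against GFP-MatKD the log2 fold change was 0.29 (SE 0.15, adjusted p 1.00), and 0.18 without replicate 2, the highest library of that group. The direct test of both lines gave 0.35 (interval 0.01 to 0.68, limma adjusted p 0.332). The early zygotic markers were lower in all 3 Piwi-MatKD_2 libraries and the ribosomal share was higher in 2 of them, and their part in the result was not tested.

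**Figure D2:**
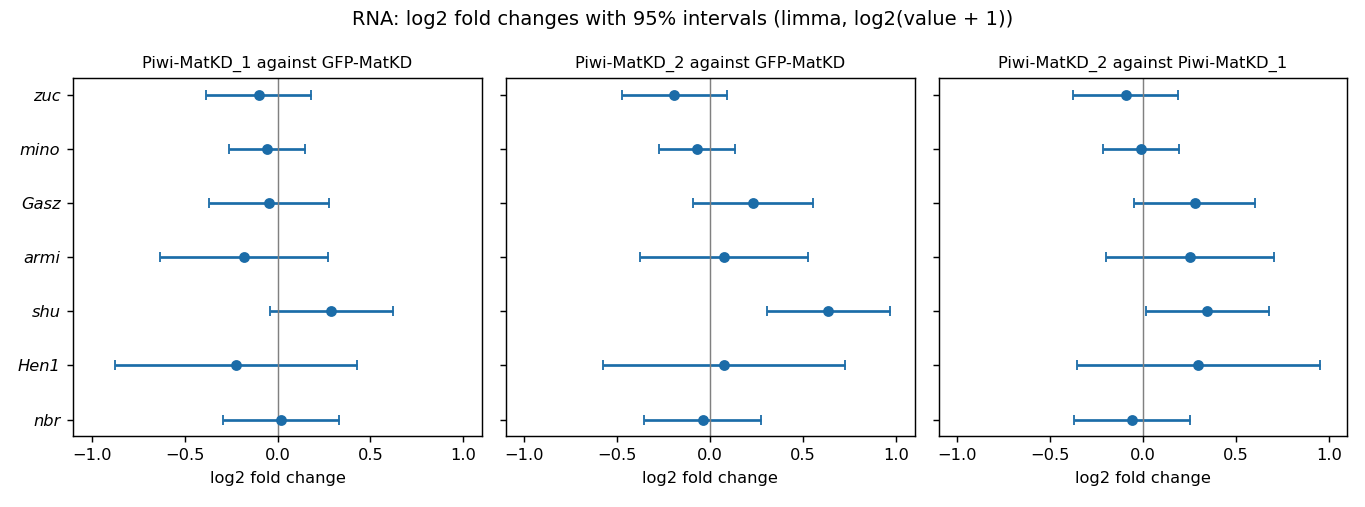
Log2 fold changes of RNA for the 7 genes in the 3 comparisons, with 95% intervals from limma as horizontal lines and a vertical line at 0. The interval of shu in Piwi-MatKD_2 against GFP-MatKD, 0.30 to 0.97, lies wholly above 0, and those of Hen1 are the widest.

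The 3′ end factors close the pathway. Hen1 (FBgn0033686, chromosome 2R, 12145710 to 12152752) encodes the methyltransferase that methylates the 3′ ends of piRNAs and of siRNAs bound to AGO2. Normalised reads of Hen1 came to 1077, 1162 and 935 among the controls, to 863, 716 and 1192 for Piwi-MatKD_1, and to 1726, 789 and 1002 for Piwi-MatKD_2. The groups overlapped, and the highest library, again that of 21.6 M reads, held 2.41 times the reads of the lowest. Its log2 fold changes were -0.22 in Piwi-MatKD_1 and 0.07 in Piwi-MatKD_2 (SE 0.29 for both, limma adjusted p 1.00 and 0.968). The 95% intervals ran from -0.88 to 0.43 and from -0.58 to 0.73, so differences within these bounds remain possible.

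nbr (FBgn0032924, chromosome 2L, 21160636 to 21163083) encodes Nibbler, a 3′ to 5′ exonuclease that trims piRNAs and miRNAs. It was measured at 4066, 4619 and 5124 normalised reads among the controls, 5116, 3987 and 4903 for Piwi-MatKD_1, and 4792, 4015 and 4589 for Piwi-MatKD_2. The 3 groups covered nearly the same range. The log2 fold changes were 0.02 and -0.04 against the control (SE 0.14, limma adjusted p 1.00 and 0.957), with intervals from -0.30 to 0.33 and from -0.36 to 0.27.

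Single libraries moved several of the genes together. The 21.6 M library of Piwi-MatKD_2 was the highest of 9 for Gasz, armi and Hen1, and Piwi-MatKD_1 replicate 2 was the lowest of 9 for these 3 and for nbr. Without the 21.6 M library, the log2 fold changes in Piwi-MatKD_2 against GFP-MatKD were -0.14 for armi and -0.24 for Hen1, so both changed sign, as they did when library totals were used for scaling, with -0.08 for each. Without Piwi-MatKD_1 replicate 2, those of Gasz, armi and Hen1 in Piwi-MatKD_1 were 0.04, -0.03 and -0.06. None of these values passed in limma. The ribosomal share of the first library and the muscle markers of the second are given above, and their part in these shifts was not tested.

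**Figure D3:**
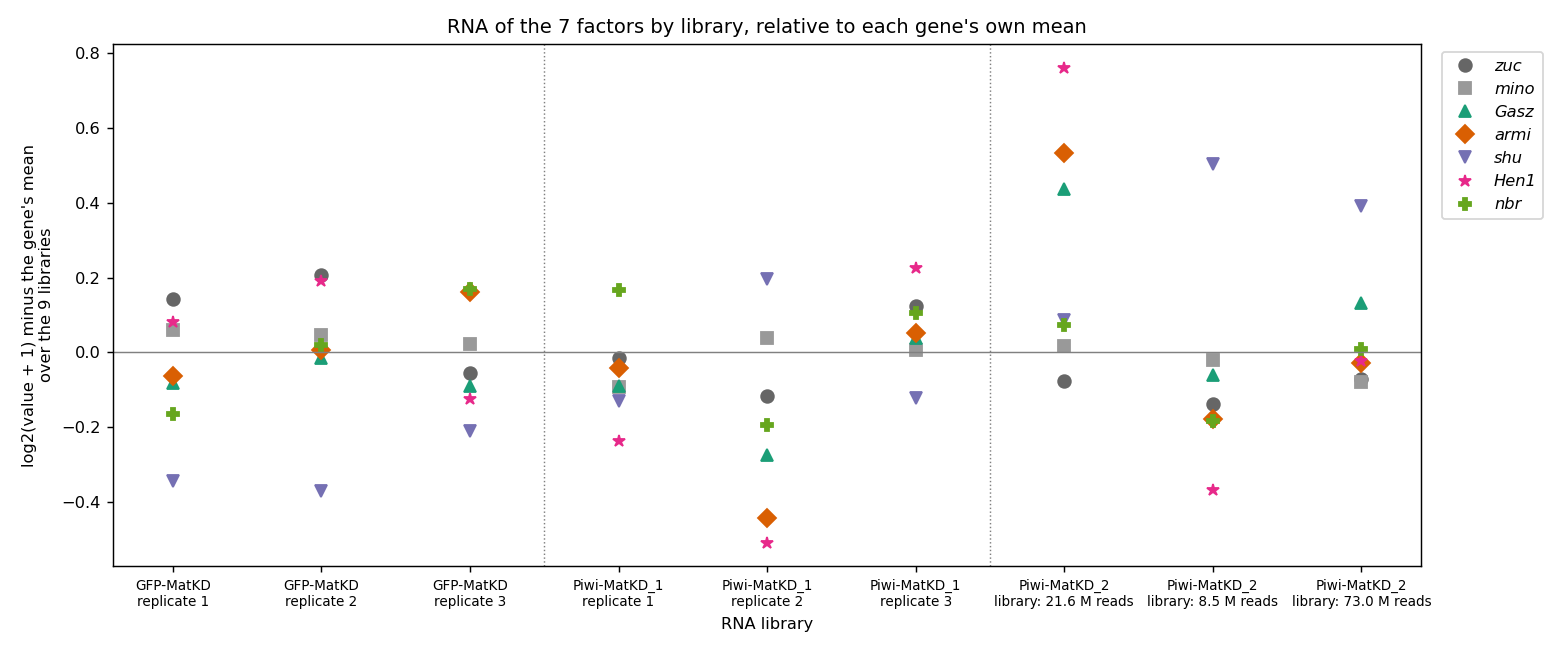
Deviation of each gene from its own mean over the 9 RNA libraries, on the log2 scale, with libraries along the horizontal axis and 1 marker shape and colour per gene and a grey line at 0. Gasz, armi and Hen1 peak in the library of 21.6 M reads (Piwi-MatKD_2) and dip in Piwi-MatKD_1 replicate 2, while mino stays close to 0 in all 9.

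How much a gene varied over all 9 libraries differed widely within the pathway. The SD on the log2 scale was 0.054 for mino, 0.13 for zuc, 0.15 for nbr, 0.20 for Gasz, 0.26 for armi, 0.31 for shu and 0.38 for Hen1, where the median of 7024 genes was 0.24. The most similar RNA pattern was sought among 7023 other genes by the root mean square difference of log2 values after each gene's own mean was removed. For zuc it was that of Uba2 (0.048), for mino CG4615 (0.037), for Gasz CG7460 (0.042), for armi CG5645 (0.058), for nbr escl (0.053) and for Hen1 a gene listed without a symbol, FBgn0051320 (0.055). shu had the most distant nearest gene, CrebB, at 0.093. The median distance to all genes was from 0.23 to 0.40, and these likenesses are descriptions over 9 libraries with no test.

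Other factors of the pathway were read from the same fits. Of 6 further phased piRNA factors at mitochondria and Yb bodies (vret, SoYb, BoYb, fs(1)Yb, papi and daed), 0 passed in limma in any of the 3 comparisons, and 0 had an unadjusted p under 0.05. edgeR and DESeq2 on the recovered reads called 0 of them as well. Their median log2 fold changes were -0.08 in Piwi-MatKD_1 and -0.16 in Piwi-MatKD_2. papi, which encodes a Tudor protein whose silkworm and mouse relatives work with a piRNA trimming enzyme, had mean normalised reads of 1585 among the controls, 1534 for Piwi-MatKD_1 and 1448 for Piwi-MatKD_2. Of 14 partner, ping-pong and nuage factors, 1, piwi itself, was lower in both lines and 13 did not pass. The 13 nuclear cluster and silencing factors gave 0 in limma, edgeR and DESeq2, with 1, 0 and 0 at an unadjusted limma p under 0.05.

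Among 10 chaperones and small RNA partners of the 7 genes, limma called AGO2, in 1 comparison. AGO2, the siRNA-binding Argonaute whose guides Hen1 methylates, averaged 10125 ± 498 normalised reads (SD, n = 3) among the controls, 9235 ± 1166 for Piwi-MatKD_1 and 16188 ± 3334 for Piwi-MatKD_2. The Piwi-MatKD_2 libraries, from 12942 to 19603, lay above all others. It was higher in Piwi-MatKD_2 than in Piwi-MatKD_1 by 0.80 on the log2 scale (SE 0.16, limma adjusted p 0.0420), and this passed in 5 of 18 alternatives, with adjusted p from 0.000272 to 0.359. Without the Piwi-MatKD_2 libraries over 5% ribosomal RNA, which left 1 library in that group, it was 0.49. Against GFP-MatKD the difference was 0.66 (limma adjusted p 0.0733), and 3 of 18 alternatives passed, DESeq2 on recovered reads among them, with adjusted p from 0.00368 to 0.377. Hsp83, the fly Hsp90 with which Shutdown works, had log2 fold changes of -0.03 (Piwi-MatKD_1) and 0.15 (Piwi-MatKD_2).

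In the small RNA table, reads of 20 to 30 nt were assigned to genes, and counts at a gene do not tell piRNAs, siRNAs and breakdown products of its transcript apart. Counts at the 7 genes were low: 23 to 142 expected counts per library for all 7 together. zuc had 3 counts in GFP-MatKD replicate 3, 2 in Piwi-MatKD_1 replicate 3 and 0 in the other 7 libraries. At shu, no library held more than 1.53 expected counts. A count of 0 allows up to 3 counts, or from 0.923 to 2.13 CPM depending on the library, where CPM is the count per 1000000 after TMM scaling, so levels at or under this floor were not detectable. Gasz held from 0.67 to 10.6 and nbr from 0 to 10 expected counts per library. Gasz, nbr, zuc and shu did not pass edgeR's filter on low counts. In an edgeR fit without that filter, over 12448 features, 0 of these 4 passed in any comparison and 0 had an unadjusted p under 0.05, where 1.86%, 2.19% and 1.38% of features passed. DESeq2 gave an adjusted p to 0, 1 and 0 of the 4, and called 0.

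The remaining 3 genes, mino, armi and Hen1, were tested with edgeR's quasi-likelihood test over 2169 features. In Piwi-MatKD_1 against GFP-MatKD, 0 of 3 passed, where 7.51% of all features did, with 2 at an unadjusted p under 0.05, beside 25.2% of all features. In Piwi-MatKD_2 against GFP-MatKD, 0 of 3 passed, against 12.5% of all features, with 1 at an unadjusted p under 0.05, beside 26.2%. In Piwi-MatKD_2 against Piwi-MatKD_1, 1 of 3 passed, against 5.39%, and 3 of 3 had an unadjusted p under 0.05, beside 25.8%. DESeq2 also called 0, 0 and 1 of the 3, where it called 9.46%, 8.2% and 8.12% of all features.

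**Figure D4:**
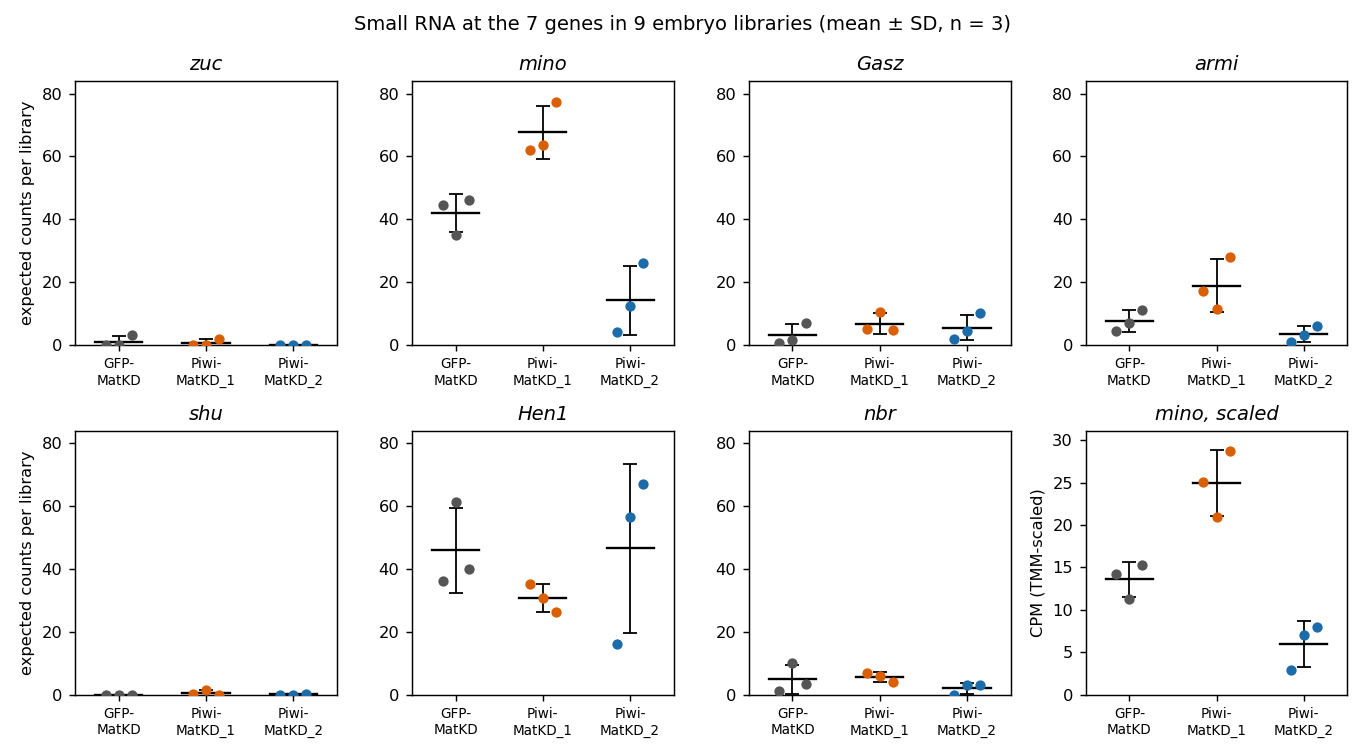
Expected counts of small RNA at the 7 genes in 9 libraries, 1 panel per gene, with mino also shown in CPM in the last panel; points are libraries and bars the group mean ± SD (n = 3). In CPM, the 3 groups occupy separate ranges at mino, with Piwi-MatKD_1 at 21.0 to 28.8, GFP-MatKD at 11.2 to 15.3 and Piwi-MatKD_2 at 2.84 to 8.0, whereas zuc and shu lie at or near 0.

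Small RNA at mino fell in Piwi-MatKD_2 relative to Piwi-MatKD_1. Control replicates 1 to 3 held 14.2, 11.2 and 15.3 CPM, those of Piwi-MatKD_1 held 25.0, 21.0 and 28.8, and those of Piwi-MatKD_2 held 2.84, 7.07 and 8.0. No group overlapped another. Here and for the other genes, how many of all features had groups so separated was not counted. The expected counts behind them were 44.7, 35.0 and 46.0, then 62.0, 63.7 and 77.3, then 4, 12.5 and 26.0. The difference between both knockdown lines was -2.02 on the log2 scale (SE 0.37, 95% interval -2.82 to -1.21, edgeR adjusted p 0.00886), a 4.05-fold difference, and 4.20% of features tested were as low or lower. It passed in all 14 alternatives, which ran from -2.36 to -1.71 with adjusted p from 0.000992 to 0.0415. Against GFP-MatKD, Piwi-MatKD_1 was at 0.87 (edgeR adjusted p 0.134) and Piwi-MatKD_2 at -1.15 (adjusted p 0.0658), so neither line passed alone.

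Library totals and the number of genes seen differed between these libraries. Totals were 1.88, 1.98 and 3.38 M expected counts in Piwi-MatKD_2 replicates 1, 2 and 3. Those of Piwi-MatKD_1 were 2.67, 2.34 and 2.29 M. The largest of these libraries, Piwi-MatKD_2 replicate 3, held 8.0 CPM at mino. In Piwi-MatKD_2 replicates 1, 2 and 3, 3957, 5736 and 7349 of 17773 genes had at least 1 count, against 6577, 7973 and 7708 in Piwi-MatKD_1. The Piwi-MatKD_2 replicate with the fewest genes was also the lowest at mino, and without it the difference was -1.71 with an edgeR adjusted p of 0.0289. RNA of mino differed by -0.01 between the same lines (limma 95% interval -0.22 to 0.19), in libraries other than those of the small RNA. Among annotated genes, asRNA:CR46452, an antisense RNA that was not analysed here, lies wholly inside mino over 1715 bases, nenya lies inside it over 818, and lncRNA:CR45566 and NSD share 178 and 96 bases with it. Whether the counting used strand is not given in the sources used here, so the origin of these reads within the locus is uncertain.

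At armi, the controls held 1.43, 2.24 and 3.74 CPM of small RNA, Piwi-MatKD_1 libraries 6.86, 3.79 and 10.4, and Piwi-MatKD_2 libraries 0.710, 1.70 and 1.85. Every Piwi-MatKD_1 library was above every other library, by a small margin at replicate 2. The log2 difference between both lines was -2.20 (SE 0.63, edgeR adjusted p 0.0665) and that of Piwi-MatKD_1 against GFP-MatKD was 1.55 (SE 0.56, adjusted p 0.118), neither of which passed. Between both lines it passed in 2 of 14 alternatives, with adjusted p from 0.0407 to 0.242, and these values rest on 1.00 to 28.0 expected counts per library.

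Small RNA at Hen1 came to 11.5, 19.7 and 13.3 CPM among the controls, to 14.2, 10.1 and 9.76 for Piwi-MatKD_1, and to 11.4, 32.0 and 20.6 for Piwi-MatKD_2. The groups overlapped, and the spread was widest in Piwi-MatKD_2. Its log2 fold changes were -0.38 in Piwi-MatKD_1, 0.54 in Piwi-MatKD_2 and 0.92 between both lines (SE 0.40 for the last, edgeR adjusted p 0.552, 0.446 and 0.172). Single libraries moved them: without GFP-MatKD replicate 2 the first was -0.14, and without Piwi-MatKD_2 replicate 2 the others were 0.12 and 0.48. The gene bsd lies inside Hen1 and covers 71.5% of its span, so these counts may be shared.

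In the wider pathway, edgeR called small RNA at piwi, nxf2 and AGO2. At piwi itself it was 9.28 ± 2.88 CPM (SD, n = 3) among the controls. It rose in both lines, to 345 ± 178 (Piwi-MatKD_1) and 1164 ± 85.9 (Piwi-MatKD_2), with edgeR adjusted p of 0.000108 and 9.15e-06. The hairpins of both lines target this gene. Small RNA made from a hairpin was not told apart from small RNA of the gene's own transcript. At nxf2, which encodes a nuclear export factor relative that acts with Panoramix in transcriptional silencing by Piwi, it was 1154 ± 186, 1412 ± 577 and 520 ± 108 CPM. Piwi-MatKD_2 was lower than GFP-MatKD by -1.15 and than Piwi-MatKD_1 by -1.44 on the log2 scale (edgeR adjusted p 0.0203 and 0.0153). At AGO2 it fell in both lines, from 724 ± 71.4 to 335 ± 65.2 and 392 ± 34.9 CPM (log2 fold changes -1.11 and -0.88, edgeR adjusted p 0.00645 and 0.00972). Of 6 partner and ping-pong factors past edgeR's filter, it called 1, piwi, in each comparison. Among all features 7.51%, 12.5% and 5.39% passed. At an unadjusted edgeR p under 0.05 were 2, 5 and 1 of these 6, piwi included, beside 25.2%, 26.2% and 25.8% of all features. DESeq2 also called mael in Piwi-MatKD_1 and qin in Piwi-MatKD_2 against GFP-MatKD, which edgeR put at log2 fold changes of -0.75 and 0.74 (adjusted p 0.0555 and 0.0507). Without the filter, edgeR called mael in the same comparison, and loqs, a partner of Dicer proteins, in Piwi-MatKD_1 against GFP-MatKD and between both lines. The 6 further phased factors did not reach the filter; without it edgeR called 0 of them, with 1, 1 and 0 at an unadjusted p under 0.05, and DESeq2 called 0.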

How the data were processed

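RNA and small RNA were measured in 9 libraries each. Per the submitters' processing notes, cutadapt, Bowtie 1.2.2, featureCounts and the build BDGP6 were used; settings, strand use and the treatment of multiply matching reads are not given in the sources used here. RNA values were deposited as a signal of reads divided by 1 factor per library; 100% of values came out as whole reads once that factor was undone (tolerance 0.01), so whole reads were recovered. The small RNA table deposited by the authors holds expected counts with no scaling between libraries, which were rounded for edgeR; CPM was computed from them with TMM factors. Piwi-MatKD_2 RNA columns could be matched to their group alone and are named by read totals.

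RNA was tested with limma 3.58.1 (trend, pseudocount 1, filter of 1 in 3 libraries), with edgeR 4.0.16 and DESeq2 1.42.0 on recovered reads as alternatives; edgeR called 19, 325 and 247 features, DESeq2 74, 811 and 686, and limma 20, 327 and 239. Small RNA was tested with edgeR (quasi-likelihood, filterByExpr), DESeq2 being the alternative. Group was the only term, all 9 libraries of an assay shared 1 spread, and p was adjusted over all features. Other alternatives were quantile normalisation, library totals, array quality weights, a pseudocount of 5, no filter, 2 groups alone, no libraries over 5% ribosomal RNA, the replicate number as a block, and leaving out each library. On simulated data the fits were tested and recovered most genes that were given large changes at higher counts. That test did not cover small changes, low counts or differences in quality between libraries. R 4.3.3, Python 3.11.15 and matplotlib 3.10.9 were used.

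The members and gene lists were chosen with earlier results of these data known. Named are all members, piwi, pathway list genes past adjusted p 0.05 in any comparison, and for each member the gene nearest in RNA pattern; genes named beside these (papi, Hsp83, genes that other tools called and overlapping genes) were chosen after their values were seen. Symbols and positions came from RefSeq (Release 6 plus ISO1 MT); nbr is written Nbr there. Intervals and floors cover counting error only where based on counts.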

Additional observations from a re-analysis of the deposited data

Results flagged for a closer look

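Small RNA at mino was flagged because the effects of both knockdown lines differed from each other. Relative to GFP-MatKD it was at 0.87 on the log2 scale in Piwi-MatKD_1 and at -1.15 in Piwi-MatKD_2, neither of which passed in edgeR. The direct test of Piwi-MatKD_2 against Piwi-MatKD_1 gave -2.02 (edgeR adjusted p 0.00886), and in all 3 libraries of each line the CPM lay on its own side of the control, at 21.0 to 28.8 and at 2.84 to 8.0 against 11.2 to 15.3. A lower level in Piwi-MatKD_2 than in Piwi-MatKD_1 was not particular to mino. Median log2 differences were -0.96 for 6 tested chaperones and partners, -0.94 for 2 nuclear factors and -0.78 for 5 maternal genes. They were 0.21 for 6 partner, ping-pong and nuage factors and 0.43 for 3 muscle genes, against -0.08 over all features.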

How the results depend on the processing

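For the RNA of the 7 genes, 373 of 378 refits kept their side of the threshold and 5, all of shu in Piwi-MatKD_2 against GFP-MatKD, newly passed; 25 fold changes differed in sign, with no pass in either fit. The count of 0 in that comparison became 1 under quantile normalisation, edgeR and DESeq2 on recovered reads and array quality weights, and ran from 0 to 1 when each library was left out; the cause was not tested. For small RNA, 122 of 125 refits kept their side. With library totals, 1 gene passed in Piwi-MatKD_2 against GFP-MatKD (mino, -1.37, edgeR adjusted p 0.0460) and 2 in Piwi-MatKD_2 against Piwi-MatKD_1 (mino and armi); that scaling moved the median of all features by -0.23 and -0.36. The replicate block gave 2 there as well (armi -2.27, adjusted p 0.0407), and for RNA in Piwi-MatKD_1 it left 0 of 7 and 3 features in all, against 20. Same-numbered libraries did not always deviate together: correlations ran from -0.299 to -0.13 for RNA and from -0.173 to 0.512 for small RNA. No paired analysis was possible for RNA of Piwi-MatKD_2 because its columns could be matched to the group alone. Counts over all features for RNA ran from 3 to 74 around 20 in Piwi-MatKD_1 and from 116 to 1826 around 327 in Piwi-MatKD_2 against GFP-MatKD. The fall of piwi RNA in Piwi-MatKD_1 missed the threshold in 7 of 9 fits with a library left out (adjusted p up to 0.133), while its log2 fold change stayed between -4.77 and -4.43. For small RNA at AGO2 and nxf2 in Piwi-MatKD_2 against GFP-MatKD, leaving out single libraries raised the edgeR adjusted p to as much as 0.0783 and 0.0998. Small RNA counts were low at 4 of the 7 genes, which were under edgeR's filter on low counts.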

Other observations

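Genes that overlap the 7 in the annotation gave these RNA values. Pld3, which shares 268 bases with nbr, averaged 2166 ± 92.2 normalised reads (SD, n = 3) among the controls, 2047 ± 159 for Piwi-MatKD_1 and 2716 ± 311 for Piwi-MatKD_2, with the 3 Piwi-MatKD_2 libraries above the other 6; the limma log2 difference was 0.32 against GFP-MatKD and 0.40 against Piwi-MatKD_1 (adjusted p 0.229 and 0.150), which did not pass, while nbr was at -0.04 and -0.06. bsd, inside Hen1, had 6601 ± 197, 6651 ± 153 and 6104 ± 171 normalised reads in the same group order. CG34163, which shares 67 bases with zuc, had 321 ± 46.6, 343 ± 55.1 and 343 ± 27.2. In the small RNA libraries, lncRNA:CR45566, which shares 178 bases with mino, held 3.57 ± 0.595, 6.16 ± 3.36 and 2.93 ± 2.91 CPM, and its difference of -1.05 between both knockdown lines did not pass (edgeR adjusted p 0.332).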
